A study of Mus musculus with 28 samples.

Results

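Polycomb regions with H3K27me3 alone were stretches of the mouse genome where this repressive histone mark was called in lung tumours without any of 3 marks of active or primed chromatin. They were built on chromosomes 1 to 19 from bases covered by H3K27me3 peaks in at least 3 of 4 libraries. Gaps of up to 1 kb were closed, stretches of 500 bp or more were kept, and every stretch that overlapped an H3K4me1, H3K4me3 or H3K27ac peak in any of the 12 lists of those marks was removed. Of 5918 H3K27me3 regions, 4002 (67.6%) were left. They spanned 9.38 Mb, which was 45.8% of the bases in all H3K27me3 regions and 0.389% of the autosomal span between the first and the last called base. The regions were chosen by the peak calls of these 4 marks, so H3K27me3 and active-mark values are given below as a description and were not tested.

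The tissue was lung tumour from mice whose K-Ras allele carries the G12D substitution behind a loxP-stop-loxP cassette (K-RasLSL-G12D), either alone or together with floxed Mll4 (Mll4fl/fl), a gene for a histone H3K4 methyltransferase. Per the labels, all mice had received Ad-CMV-Cre, an adenovirus that delivers Cre recombinase under the broadly active CMV promoter, so recombination is not restricted to one cell type by the promoter. Tumours were used as whole tissue, and the labels give no age, no purity and no number of tumours per library. Each of 6 marks was mapped by chromatin immunoprecipitation and sequencing in 4 libraries, numbered 1 to 4 as replicates. The genotype of each library is not in the labels. A comparison by genotype was therefore not made, and each value is given by replicate, so that the spread between replicates can include a difference between genotypes. The labels also leave unsaid whether replicates came from separate mice, so the p-values measure only the spread between these libraries.

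H3K27me3 is written by Polycomb repressive complex 2, whose catalytic subunit is EZH2 or EZH1, and is read by Polycomb repressive complex 1, which compacts the marked chromatin. In differentiated tissue it typically lies over silent developmental genes, often at CpG-rich promoters and sometimes in broad domains. Where H3K4me3 is found at the same place the region is called bivalent, and where H3K4me1 is present at a distal site it is called poised. H3K79me2 is laid down along transcribed genes by DOT1L, and H3K9me3 marks constitutive heterochromatin, repeats and some zinc-finger gene clusters.

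The lists differed in size before any region was built. The H3K27me3 peaks covered 10.8, 23.7, 102.3 and 32.4 Mb of the autosomes in replicates 1 to 4, so the H3K27me3 replicate 3 list alone covered more than the other 3 lists together. Among the active marks, H3K4me3 replicate 1 covered 3.12 Mb against 26.4 to 32.3 Mb in the other 3, and H3K27ac replicates 1 and 2 covered 19.9 and 22.1 Mb against 114.5 and 112.4 Mb in replicates 3 and 4. By number, the H3K27ac lists of replicates 1 and 2 held more peaks (61132 and 79837) than those of replicates 3 and 4 (39470 and 42638). Their median widths were 234 and 216 bp against 2064 and 1713 bp. H3K27me3 replicates 2 and 4 also held more peaks (47695 and 43386) than replicate 3 (38213), at median widths of 337 and 456 against 1490 bp. Sequencing depth and peak-calling settings are not given by peak lists. Their part in the covered length cannot be told apart from weak enrichment. Without the H3K27ac replicate 2 and H3K4me3 replicate 1 lists in the exclusion step, 4065 regions qualified instead of 4002.

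The 1916 H3K27me3 regions that were removed show how the class was bounded. Of them, 1463 held an H3K4me3 peak in some list, the pairing found in bivalent regions. Another 410 held H3K4me1 without H3K4me3, the pairing found in poised regions, and 43 held H3K27ac only. An overlap of 1 bp with a peak of any list was enough, and distal position was not known. Overlap in whole tissue also does not show both marks on the same molecules. A single list excluded 455 of the 1916 regions (23.7%). H3K4me1 replicate 2 was that list most often, with 113 regions. It was H3K4me3 replicate 1 for 62 regions and H3K27ac replicate 2 for 1 region. When an active mark had to be covered in at least 2 libraries to exclude a region, 4635 regions qualified. At the length limit, 342 regions without active marks fell in the 100 bp just above it and 512 in the 100 bp just below it, so the limit fell within a continuous distribution.

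Regions with H3K27me3 alone were short. Their median length was 1568.5 bp, with quartiles at 925 and 2868 bp, and 1131 of them (28.3%) were under 1 kb. Only 381 (9.52%) reached 5 kb and 56 (1.40%) reached 10 kb, but those of 5 kb or more held 31.6% of the bases. H3K27me3 regions with an active mark had a median of 3863 bp, and 307 of them reached 10 kb. Those with H3K4me3 had a median of 4096 bp, H3K4me1-bearing regions without H3K4me3 one of 3575 bp, and the 43 with H3K27ac only one of 1655 bp. The share of H3K27me3 regions without any active mark fell from 87.0% of those under 1 kb to 64.7% at 2 to 5 kb, 41.6% at 5 to 10 kb and 15.4% at 10 kb or more. A longer region has more bases in which an active-mark peak can fall, so these lengths follow in part from the rule, and the part was not tested.

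**Figure D1:**
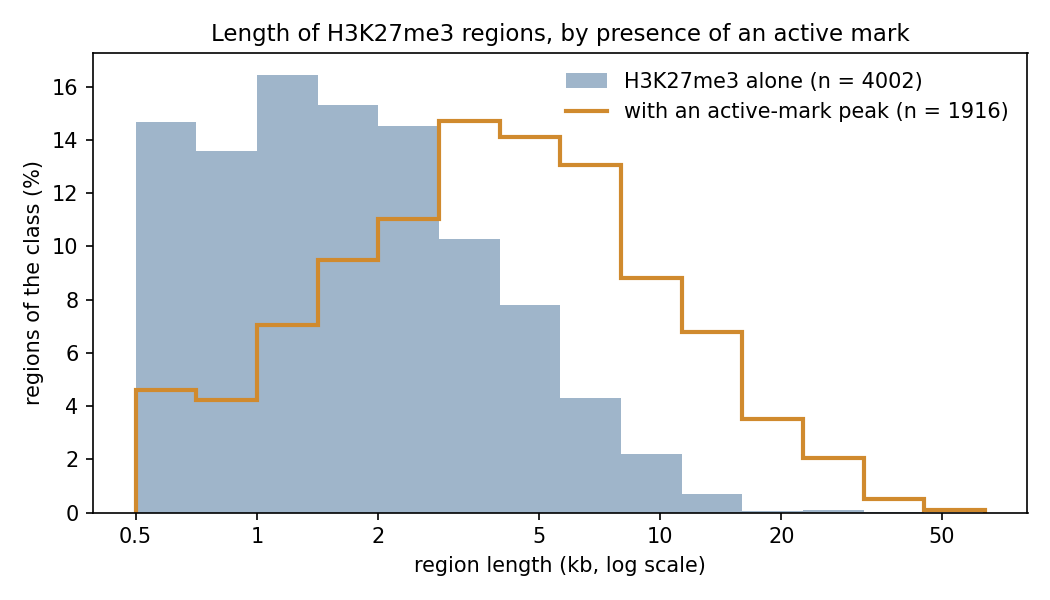
Length distribution of H3K27me3 regions on a log axis in kb, as percent of the regions of each class; the filled outline is H3K27me3 alone (4002 regions) and the open outline is H3K27me3 with an active-mark peak (1916 regions). The first class has its median at 1568.5 bp and the other at 3863 bp.

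The 10 longest regions ranged from 15222 to 33819 bp, and all 10 had H3K27me3 peaks in all 4 libraries (mm9 coordinates, counted from 1). The longest lay on chromosome 4 from 139365079 to 139398897. H3K27me3 peaks covered 25989, 30604, 33819 and 32594 bp of it in replicates 1 to 4 (30752 ± 3440 bp, SD, n = 4). The nearest active-mark peak of any list was 120.7 kb away, the nearest H3K79me2 peak 120.2 kb away and the nearest H3K9me3 peak 18.9 kb away. A further region of 15826 bp, from 139312529 to 139328354, lay beside it in the same group of neighbouring regions. This stretch of chromosome 4 thus held the longest region without active marks, and at least 76.8% of that region was covered in every library.

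The next longest was on chromosome 11 from 115173130 to 115203711 (30582 bp), where the covered length was 15695, 25427, 30582 and 26568 bp (24568 ± 6315 bp, SD, n = 4). On chromosome 2 a region from 164920995 to 164946899 (25905 bp) and one from 164952892 to 164972487 (19596 bp) stood 6 kb apart. The remaining 5 were on chromosome 14 from 63868951 to 63893991, on chromosome 6 from 51133724 to 51158380, on chromosome 5 from 140133727 to 140152864, on chromosome 7 from 31235231 to 31253856 and on chromosome 2 from 163674923 to 163690144. In each of the 10 the covered length was smallest in replicate 1 and largest in replicate 3. None of the 10 held an H3K79me2 peak. The chromosome 14 region alone was touched by H3K9me3, which covered 418 bp of it in replicate 4 only. Distances to the nearest active mark were very uneven among them, from 4.01 kb for the chromosome 7 region to 120.7 kb.

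H3K27me3 itself was called unevenly across the 4 libraries. A peak was present in 2690 of the 4002 regions (67.2%) in replicate 1, in 3947 (98.6%) in replicate 2, in 3964 (99.1%) in replicate 3 and in 3920 (98.0%) in replicate 4. All 4 libraries had a peak in 2515 regions (62.8%), and 1312 (32.8%) lacked one in replicate 1 only. The regions with peaks in 4 libraries had a median length of 2191 bp and those lacking replicate 1 a median of 1070.5 bp. The share with a replicate 1 peak rose with length, from 47.4% under 1 kb to 82.7% at 2 to 5 kb and 100% at 10 kb or more. Regions without a replicate 1 peak were thus shorter at the median. Length was built from the same calls, and a longer region has more bases in which a peak can fall. The rise with length therefore follows in part from the rule, and the part was not tested.

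The texture of the calls also differed. The median share of a region covered by peaks was 23.4% in replicate 1, 70.6% in replicate 2, 100% in replicate 3 and 84.4% in replicate 4. In replicate 2, 80.2% of the regions were made of 2 or more peaks, against 7.25% in replicate 3, where 91.6% of the regions were wholly covered. The order of the 4 libraries matched the order of the bases covered by their whole lists. The same order held in H3K27me3 regions with an active mark, where 50.7%, 77.7%, 98.5% and 88.5% of the bases were covered in replicates 1 to 4, so it was not a property of the regions without active marks.

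**Figure D2:**
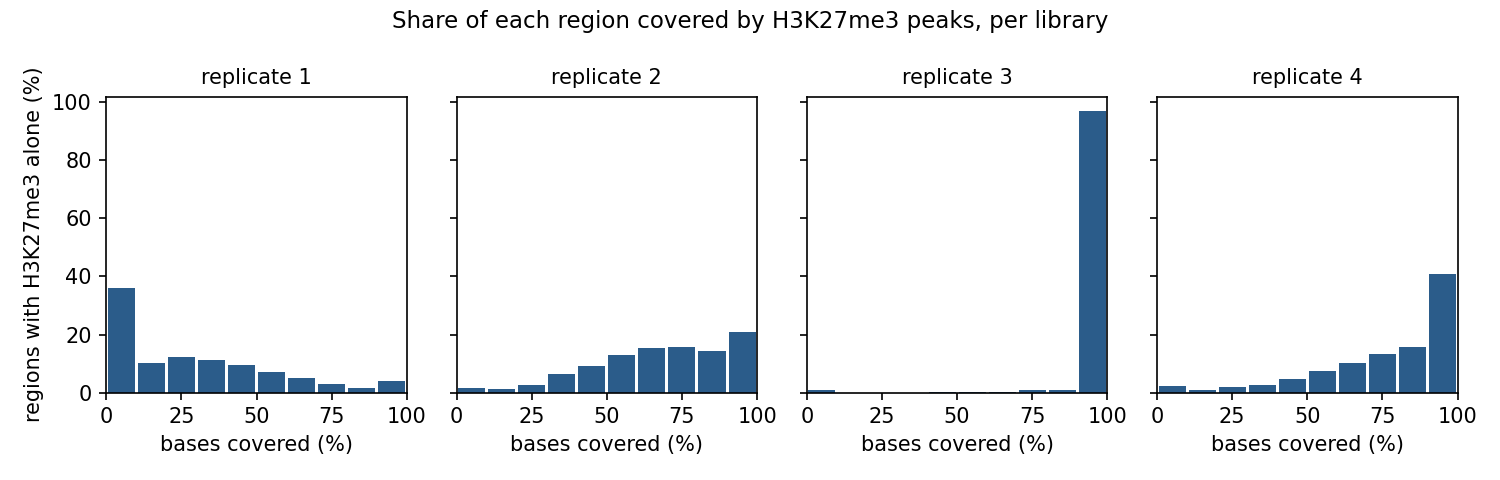
Share of each region with H3K27me3 alone that was covered by H3K27me3 peaks, one panel per library; the x axis is percent of the region's bases in steps of 10 and the y axis percent of the 4002 regions. Replicate 3 covers nearly all regions in full, while replicate 1 leaves 1312 regions without a peak.

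Whether a region counted as standing alone depended on how far H3K27me3 was called around it. In the first kb on both sides, H3K27me3 peaks covered 2.94%, 12.8%, 89.1% and 33.6% of bases in replicates 1 to 4. Since gaps of up to 1 kb were closed, no base there could be covered in 3 or more libraries. These values therefore follow in part from the rule. When the peaks of one library were joined over gaps of up to 1 kb, the regions fell into domains with a median length of 0.802 kb in replicate 1, 2.33 kb in replicate 2, 15.1 kb in replicate 3 and 4.38 kb in replicate 4. In replicate 3, 2057 of 3964 regions (51.9%) shared their domain with another region, up to 11 in 1 domain. In the same library 1634 regions (41.2%) lay in a domain that held an active-mark peak of some list elsewhere along its length. That share was 1.19% in replicate 1, 3.88% in replicate 2 and 19.3% in replicate 4. By the replicate 3 calls, 2330 regions (58.8%) therefore belonged to H3K27me3 domains without any active-mark peak, and by the replicate 2 calls 3794 of 3947 (96.1%) did.

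The regions were clustered along the chromosomes. The median distance to the nearest other region with H3K27me3 alone was 7.38 kb, and 2228 regions (55.7%) had one within 10 kb, while 128 had none within 1 Mb. For H3K27me3 regions with an active mark, the median distance to the next of their own kind was 106.9 kb, in a set with fewer members. For all 5918 H3K27me3 regions together it was 4.51 kb, with 62.7% within 10 kb and 84.2% within 100 kb of another. Linked over distances of up to 100 kb, 3333 regions (83.3%) formed 671 chains of 2 or more and 669 stood single. The 72 chains with 10 or more held 1205 regions (30.1%). Chains were not free of other H3K27me3 regions: 269 of the 671 (40.1%) had at least 1 active-marked H3K27me3 region within their bounds, and 402 had none. Since a domain with gaps over 1 kb is counted as several regions, the chained share depends on the joining step. With gaps of up to 5 kb closed, 64.2% of 2296 regions were in chains.

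The 5 largest chains held 32 to 87 regions each. The largest, on chromosome 9 from 60787439 to 61744681, had 87 regions with 216.2 kb between them, and 10 H3K27me3 regions with an active mark inside its 957.2 kb. H3K9me3 peaks lay in every library within 4 of the 5 chains, with 2 to 31 per library in this one. The second, on chromosome 11 from 95741678 to 96570906, had 63 regions, 9 active-marked ones and 2 to 14 H3K9me3 peaks per library. A chain of 36 regions on chromosome 4 (136306440 to 136826215) had 133.9 kb of H3K27me3 alone against 30.5 kb in active-marked regions, and 4 to 16 H3K9me3 peaks per library. The opposite balance was seen in a chain of equal size on chromosome 15 (102512163 to 103011052), where 117.6 kb lay in regions without active marks and 149.2 kb in 20 active-marked regions, and where a library had 0 to 2 H3K9me3 peaks. The fifth chain, on chromosome 19 from 53723843 to 54008407, packed 32 regions into 284.6 kb and held 5 to 11 H3K9me3 peaks in each library, among them one of the most H3K9me3-covered regions described below. The balance between both kinds of H3K27me3 region thus differed among these chains, and each of the 5 held some active-marked regions. The H3K9me3 counts are over the whole span of each chain, not its regions alone. For scale, the H3K9me3 lists held 5160 to 11203 peaks over 2412 Mb of autosomal span. Whether chains held more H3K9me3 peaks than other stretches of their length was not tested.

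At a finer scale, all 5918 H3K27me3 regions were joined into neighbourhoods over distances of up to 10 kb. Of the regions with H3K27me3 alone, 1313 (32.8%) had no other H3K27me3 region within 10 kb, and 2680 (67.0%), these included, lay in neighbourhoods without an active-marked member. The other 1322 (33.0%) were in 598 mixed neighbourhoods, which held 827 (43.2%) of the active-marked regions. Regions in mixed neighbourhoods had a median length of 1735 bp and those in neighbourhoods of their own kind one of 1504.5 bp.

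The density of the regions differed between autosomes. Over the whole span there were 1.66 regions per Mb. Chromosome 19 was densest, with 243 regions or 4.18 per Mb, followed by chromosome 11 with 3.39 and chromosome 9 with 2.97 per Mb. Chromosome 1 was sparsest, with 145 regions or 0.747 per Mb, a 5.60-fold difference from chromosome 19. The share of H3K27me3 regions without an active mark was 76.4% on chromosome 19 and 56.2% on chromosome 1, the highest and the lowest of the 19. Across the 19 chromosomes, density went with the share of the chromosome covered by H3K79me2 (Pearson's r 0.872, Spearman's rho 0.793; r 0.702 without chromosomes 11 and 19) and with the density of active-marked H3K27me3 regions (r 0.883, rho 0.907; r 0.815 without the same 2). These correlations are descriptions: all chromosomes were read in the same libraries, and gene density and base composition were not measured.

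**Figure D3:**
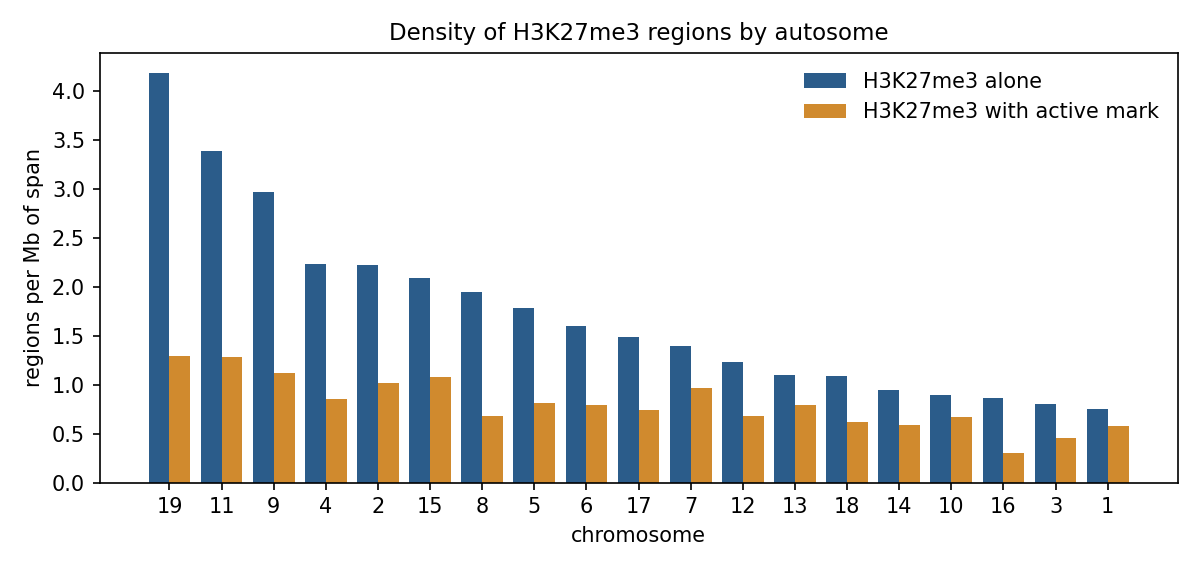
Number of H3K27me3 regions per Mb of each autosome's span, in order of the density of regions with H3K27me3 alone; paired bars show regions with H3K27me3 alone and regions with an active mark. Chromosome 19 has 4.18 regions with H3K27me3 alone per Mb and chromosome 1 has 0.747.

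Within chromosomes the regions were concentrated as well. Of 473 windows of 5 Mb, 131 (27.7%) held none, the median was 3, and 50 windows (10.6%) held 50% of the regions. The fullest window, on chromosome 9 from 57999962 to 62999961, held 103. Mouse chromosomes carry the centromere at the low-numbered end. With each span cut into 3 equal parts, the part nearest to it held 790 regions (19.7%), the middle part 1169 (29.2%) and the far part 2043 (51.0%). For active-marked H3K27me3 regions the shares were 26.0%, 30.4% and 43.6%, and 28.1%, 31.2% and 40.7% of H3K79me2-covered bases lay in the same parts, as the mean of 4 libraries. The far part was the fullest on 11 of 19 chromosomes, the middle part on 7 and the near part on chromosome 17 only, so the pattern was not shared by all chromosomes.

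Active marks lay outside the regions but at varied distances. The nearest peak of any active-mark list was at a median of 10.6 kb, with quartiles at 3.82 and 26.9 kb. It was within 1 kb for 378 regions (9.45%) and beyond 100 kb for 114 (2.85%). H3K4me1 was the nearest of the 3 marks for 1727 regions (43.2%), H3K4me3 for 1456 (36.4%) and H3K27ac for 819 (20.5%). The most remote pair lay on chromosome 19, from 30621552 to 30628378 and from 30614632 to 30618091, 371.3 and 364.4 kb from any active-mark peak; both were named after their values were seen. As many as 2004 regions (50.1%) were over 50 kb from the nearest active-marked H3K27me3 region. When regions with an active-mark peak within 5 kb were removed as well, 2767 remained.

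H3K79me2, which the rule did not use, was nearly absent from the regions. Its peaks covered 0.153%, 0.139%, 0.0590% and 0.0292% of their bases in replicates 1 to 4 (0.0950% ± 0.0603, SD, n = 4). In H3K27me3 regions with an active mark the values were 1.36%, 0.804%, 0.405% and 0.260% (0.708% ± 0.493, SD, n = 4), and in the rest of the autosomal span, outside every H3K27me3 region, they were 5.84%, 6.44%, 5.92% and 4.78% (5.75% ± 0.698, SD, n = 4). The 3 sets of values did not overlap. Within libraries, coverage was 38.3-fold to 163.9-fold lower than in the rest of the span and 5.77-fold to 8.93-fold lower than in active-marked H3K27me3 regions.

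Both differences had the same direction in 4 of 4 libraries. They were -5.65 ± 0.654 percentage points against the rest of the span and -0.613 ± 0.438 against active-marked regions (SD, n = 4). The exact two-sided sign-flip p was 0.125 for each, the smallest that 4 libraries can give, and 0.188 after Benjamini-Hochberg adjustment over 6 tests, so the sign-flip test could not pass 0.05 with 4 libraries. Only 24 regions (0.600%) touched an H3K79me2 peak in any library, where 2.11% of all 5918 H3K27me3 regions did, and 12 (0.300%) did so in at least 2 libraries, where 1.08% of all did. One region of 906 bp, on chromosome 5 from 36275205 to 36276110, was wholly covered by H3K79me2 in all 4 libraries and carried H3K27me3 peaks in all 4; it was named after its values were seen. Whether removing regions with active marks by itself lowers H3K79me2 was not tested, either against the active-marked class or against the rest of the span. The rest of the span kept its sites with active marks. The difference from active-marked H3K27me3 regions also varied with library support, from -0.189 for bases covered in all 4 H3K27me3 libraries to -1.38 for at least 2.

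The same mark rose steadily away from the regions. H3K79me2 covered 0.190% ± 0.132 of bases in the first kb on either side (SD, n = 4), 1.61% ± 0.385 at 5 to 10 kb, 5.07% ± 0.707 at 20 to 50 kb and 11.2% ± 1.05 at 100 to 200 kb. The last value was above the 5.70% ± 0.693 of the whole span in 4 of 4 libraries. In the first kb around active-marked H3K27me3 regions it was 1.37% ± 0.769, and at 100 to 200 kb it was 10.7% ± 1.15 (SD, n = 4). H3K79me2 coverage around regions with H3K27me3 alone thus rose with distance up to 200 kb. H3K27me3 around the regions differed between libraries. It fell from the first kb to 100 to 200 kb in replicate 3 (89.1% to 19.6%) and replicate 4 (33.6% to 8.73%). In replicate 1 it was 2.94% in the first kb, 8.10% at 5 to 10 kb and 2.69% at 100 to 200 kb, and in replicate 2 it was 12.8%, 17.7% and 6.09% at the same distances. The first-kb values follow in part from the rule, which left no base there covered in 3 or more H3K27me3 libraries. Flanks of neighbouring regions overlap, so these values are not independent between regions.

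**Figure D4:**
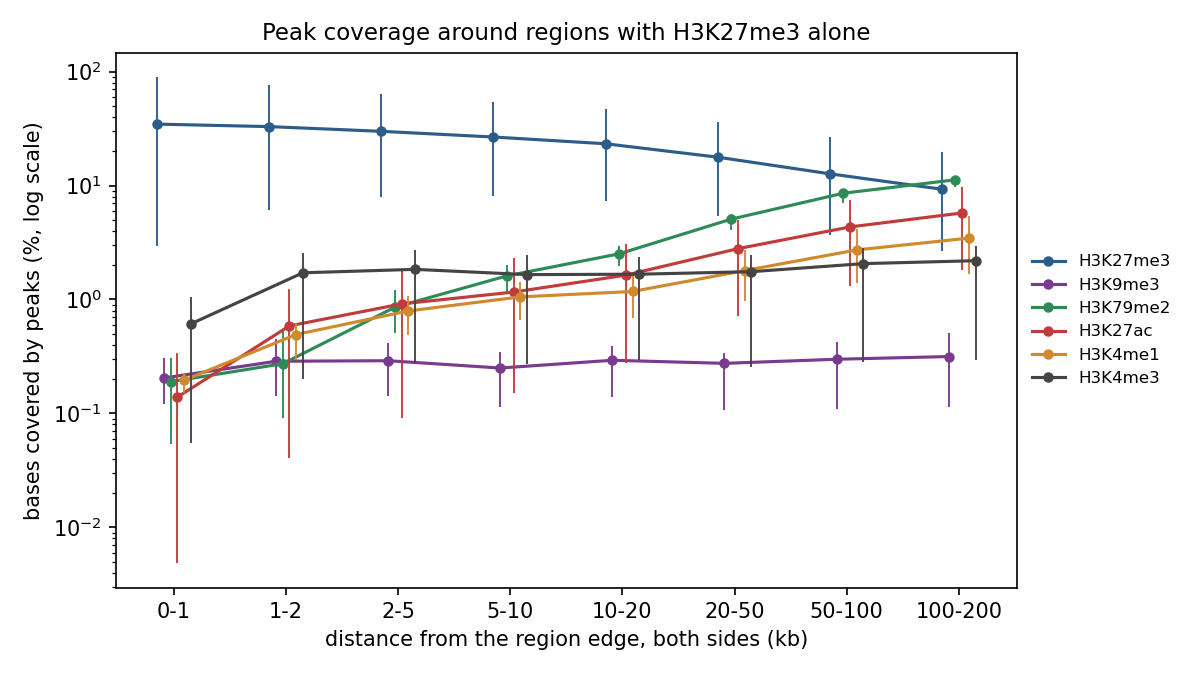
Percent of bases covered by peaks of each mark (log axis) in steps of distance from the edge of regions with H3K27me3 alone, both sides joined; points are means of 4 libraries and vertical lines run from the lowest to the highest library. H3K79me2 rises from 0.190% in the first kb to 11.2% at 100 to 200 kb, while H3K9me3 stays between 0.204% and 0.316%.

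The median distance to the nearest H3K79me2 peak was 69.1, 71.5, 71.1 and 74.8 kb in replicates 1 to 4. For active-marked H3K27me3 regions it was 57.1, 59.0, 61.3 and 67.1 kb. The values of both classes did not overlap, and the regions with H3K27me3 alone were farther away in 4 of 4 libraries, by 0.23 ± 0.058 on the log2 scale (SD, n = 4; exact sign-flip p 0.125, adjusted 0.188). The difference rested on how regions were built. For bases covered in all 4 H3K27me3 libraries it was 0.034 ± 0.036, within its spread and without a common sign in the 4 libraries (exact sign-flip p 0.25), and it was 0.54 ± 0.067 when an active-mark peak within 5 kb excluded a region.

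H3K9me3, the second repressive mark, was rare in the regions. It covered 0.154%, 0.197%, 0.0414% and 0.127% of their bases in replicates 1 to 4 (0.130% ± 0.0654, SD, n = 4). In the rest of the span it covered 0.239%, 0.162%, 0.0845% and 0.242% (0.182% ± 0.0747, SD, n = 4). The regions were lower in 3 of 4 libraries and higher in replicate 2, and the difference of -0.0522 ± 0.0646 percentage points was smaller than its spread (exact sign-flip p 0.25, adjusted 0.25). This comparison turned on how regions were built. The difference exceeded its spread and was negative in 4 of 4 libraries for bases covered in all 4 H3K27me3 libraries (-0.0757 ± 0.0383), with gaps of up to 5 kb closed (-0.0965 ± 0.0794) and with active-mark peaks kept 5 kb away (-0.0799 ± 0.0633), each with an exact sign-flip p of 0.125, adjusted 0.15. It was smaller for peaks of score 100 or more (-0.032 ± 0.054, exact sign-flip p 0.5) and for equal numbers of best-scored peaks (-0.026 ± 0.027, p 0.25). Without replicate 2 it was -0.104 ± 0.0562 over 3 libraries, and without replicate 4 it was -0.018 ± 0.0566.

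H3K27me3 regions with an active mark carried more H3K9me3, at 0.234%, 0.280%, 0.239% and 0.821% (0.394% ± 0.286, SD, n = 4). Regions with H3K27me3 alone were lower in 4 of 4 libraries, by -0.264 ± 0.292 percentage points (exact sign-flip p 0.125, adjusted 0.188), or 1.43-fold to 6.45-fold. Replicate 4, with 128 touched active-marked regions against 30 to 37 in the other libraries, set much of that difference. Without replicate 4 in any mark the difference was -0.106. Among active-marked regions, those with H3K4me3 had 0.448% ± 0.325 (SD, n = 4), with 0.935% in replicate 4 and 0.259% to 0.312% in the others. Those with H3K4me1 but no H3K4me3 had 0.150% ± 0.0990 (SD, n = 4), against 0.130% ± 0.0654 in regions without active marks. The order of these last means rested on replicate 4, with 0.280% against 0.127%. In replicates 1 to 3 the H3K4me1 class was lower, at 0.133%, 0.149% and 0.0391% against 0.154%, 0.197% and 0.0414%. The 43 regions with H3K27ac only had 0% in replicates 1 to 3 and 1.30% in replicate 4. An H3K9me3 peak of any library touched 3.90% of the H3K4me1 class, whose regions were longer. It touched 1.40% of the regions without active marks and 3.53% of all H3K27me3 regions. The median distance to the nearest H3K9me3 peak was 132.4, 89.7, 249.0 and 111.3 kb for the regions and 144.6, 111.5, 289.3 and 106.9 kb for active-marked ones, a log2 difference of -0.15 ± 0.16 (SD, n = 4) with opposite signs among libraries (exact sign-flip p 0.25, adjusted 0.25). It had the same sign in 4 of 4 libraries under 4 alternatives, among them peaks of score 100 or more, at -0.28 ± 0.15, and equal numbers of best-scored peaks, at -0.22 ± 0.071 (exact sign-flip p 0.125, adjusted 0.15, for each).

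**Figure D5:**
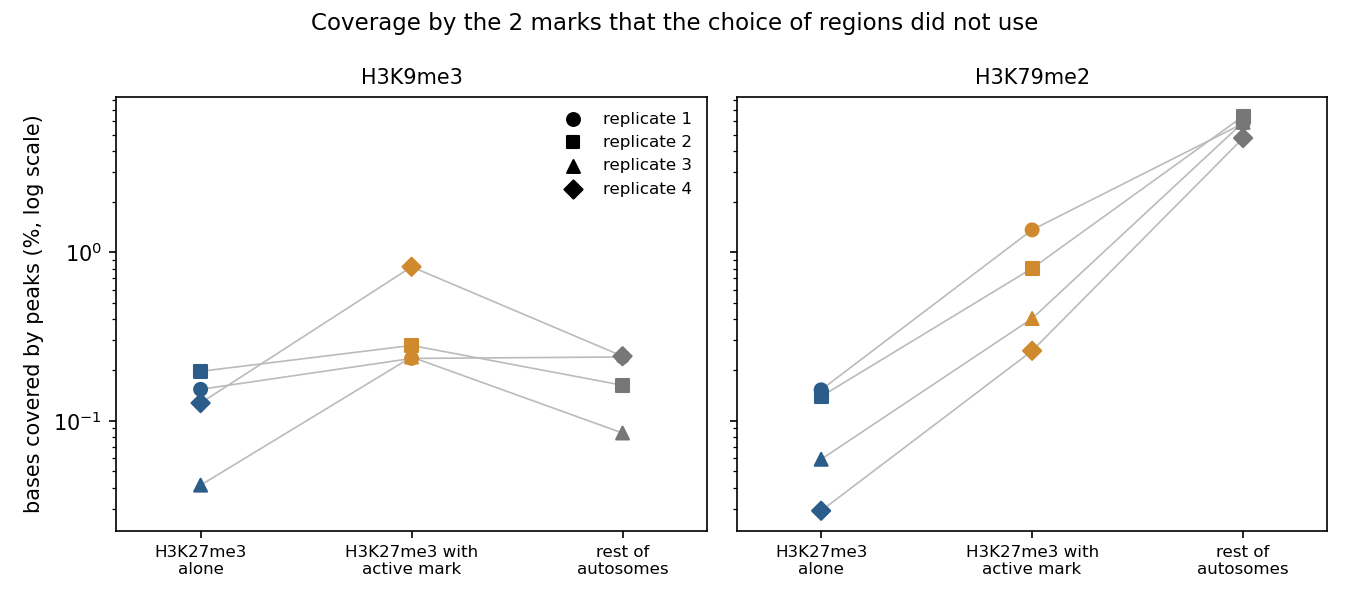
Percent of bases covered by H3K9me3 and H3K79me2 peaks (log axis) in regions with H3K27me3 alone, in H3K27me3 regions with an active mark and in the rest of the autosomes; each symbol is 1 library and lines join the values of a library. H3K79me2 rises from left to right in all 4 libraries, while H3K9me3 in the first class lies below the rest of the autosomes in replicates 1, 3 and 4 and above it in replicate 2.

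An H3K9me3 peak touched 56 of the 4002 regions (1.40%) in at least 1 library, where 3.53% of all 5918 H3K27me3 regions were touched, and 22 (0.550%) in at least 2 libraries, where 1.17% of all were. The 22 regions lay on 13 chromosomes and had a median length of 2435 bp. Replicates 1 and 2 found H3K9me3 in 20 and 21 of them, and replicates 3 and 4 in 9 each. Of the 34 regions touched in a single library, 13 were touched in replicate 4 and 12 in replicate 2. In 11 of the 22 the mean H3K9me3 coverage over the 4 libraries reached 10% of the length, and in 1 it reached 50%. H3K9me3 was found in all 4 libraries in 5 regions (0.125%), where it was in 12 (0.203%) of all H3K27me3 regions.

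Among the 22, the region with the highest mean H3K9me3 coverage was on chromosome 11 from 57382682 to 57384382 (1701 bp). H3K9me3 covered 100%, 82.2%, 0% and 57.1% of it in replicates 1 to 4. It had no H3K9me3 peak in replicate 3, whose list covered the fewest bases. A region of 1848 bp on chromosome 7 from 17471258 to 17473105 was covered to 52.0%, 40.6%, 34.3% and 51.4%, and one of 2471 bp on chromosome 19 from 53780588 to 53783058 to 31.1%, 43.1%, 35.4% and 49.0%. These were found in all 4 libraries. H3K27me3 covered 17.2%, 73.3%, 100% and 86.6% of the chromosome 7 region and 9.27%, 53.3%, 100% and 92.6% of the chromosome 19 region, so in the replicate 3 lists every base under H3K9me3 in these regions was also under H3K27me3, which does not show both marks on the same molecules.

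The remaining 2 of the 5 regions with most H3K9me3 differed between libraries. On chromosome 5 from 147993898 to 147995428, H3K9me3 covered 85.5% and 62.0% in replicates 1 and 2, and no peak was called in replicates 3 and 4. On chromosome 18 from 81170606 to 81171639 it covered 52.1%, 36.7% and 26.1% in replicates 1 to 3 and no peak was called in replicate 4. None of the 5 regions touched an H3K79me2 peak in any library. Of all 4002 regions, 2 (0.050%) touched both H3K9me3 and H3K79me2 in some library, as did 12 (0.203%) of all H3K27me3 regions. Neither mark was touched by 3924 (98.1%), against 94.6% of all H3K27me3 regions.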

How the data were processed

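Each antibody library had its own peak list, with chromosome, start, end, name and score. Per the submitters' processing notes, CASAVA 1.7, Bowtie, MACS and deepTools were used and the build was mm9; settings and filters are not given in the sources used here. The deposited score comes from the peak caller, with a smallest value of 50; it served to describe, rank and filter peaks within a list. The 4 input samples were not analysed here. The gene and sequence tables at hand are for GRCm38, so no gene or sequence was assigned to a region. The members, named regions and tests were chosen with earlier results of these data known. Regions were named by a rule: the 10 longest, the 5 with most H3K9me3 among those touched in at least 2 libraries, the 5 chains with most regions, and the densest and sparsest chromosomes. Intervals were computed with Python 3.11.15 and numpy 2.4.6, and the interval steps were tested on 200 simulated chromosomes with 0 errors. Covered share is the percent of bases under a peak, and distance runs from edge to edge. Both values of a difference came from 1 library, so the replicate was kept as a block in exact sign-flip tests (16 patterns). Depth is unknown, so no counting interval was given. Alternatives changed library support, gaps, length, exclusion, peaks used, chain distance and replicates.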

Additional observations from a re-analysis of the deposited data

Results flagged for a closer look

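In 10 groups of 4 libraries (covered shares and median distances of H3K9me3 and H3K79me2, the marks that played no role in choosing regions), the gap between an extreme library and its neighbour was divided by the range. In 1 group it passed Dixon's 95% critical value, and about 1 group in 20 does so by chance. H3K9me3 replicate 4 covered 0.821% of the bases of active-marked H3K27me3 regions, against 0.234% to 0.280% in the other 3 libraries.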

How the results depend on the processing

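The number of regions with H3K27me3 alone, 4002, varied with library support, joining and the length limit. It was 1605 for bases covered in all 4 libraries, 8532 for at least 2, 6438 with no gap closed, 2296 with gaps of up to 5 kb closed and 6815 with a minimum length of 200 bp. Leaving out a replicate, which also required 2 of 3 libraries and dropped that replicate's active-mark lists, gave 4203 to 8440 regions. The median length was 771.5 bp with no gap closed, 3086.5 bp with 5 kb gaps closed, 2207 bp with a minimum of 1000 bp and 710.0 bp with one of 200 bp. The share in chains was 73.7% for all 4 libraries, 88.8% for at least 2, 93.1% with no gap closed, 64.2% with 5 kb gaps closed, 78.3% and 88.8% with minimum lengths of 1000 and 200 bp, 81.1% with active marks kept 5 kb away, 77.7% for peaks of score 100 or more, 79.2% for equal numbers of best-scored peaks, 77.3% and 93.3% with chain distances of 50 and 500 kb, and 83.3% to 88.9% without 1 replicate.

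No difference in H3K9me3 or H3K79me2 changed sign under the 16 alternatives that changed regions, peaks or replicates; those on chain distance apply to chains only. With no replicate block, the exact permutation test over 70 splits gave its smallest possible p of 0.0286 (adjusted 0.0429) for 4 of the 6 comparisons: the H3K79me2 share against active-marked regions (-0.613) and the rest of the span (-5.65), the H3K9me3 share against active-marked regions (-0.264) and the distance to H3K79me2 (0.23). That test ignores that both values come from 1 library. The H3K79me2 share against active-marked regions was -0.189 for bases in all 4 libraries, -0.378 for peaks of score 100 or more and -1.38 for at least 2 libraries, and the H3K9me3 share was -0.428 for all 4 libraries and -0.594 with no gap closed. The distance to H3K9me3 was -0.28 to -0.11 over the alternatives that kept all replicates. Without 1 replicate, the H3K79me2 share against active-marked regions was -1.19 to -0.749, the distance to H3K79me2 0.25 to 0.50, the H3K9me3 share -0.325 to -0.106 against active-marked regions and -0.104 to -0.018 against the rest of the span, and the distance to H3K9me3 -0.25 to -0.058. The cause of these shifts was not tested. The percent of regions touched replaces bases only where regions are compared with regions, so it gave no value for the rest of the span. Against active-marked regions it differed by -2.15 ± 1.07 percentage points for H3K79me2 (SD, n = 4). For H3K9me3 it differed by -2.37 ± 2.51, which was smaller than its spread. The exact sign-flip p was 0.125 for each (adjusted 0.167).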
